A study of Mus musculus with 8 samples.

Results

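The kappa variable (Igkv) segments are the germline gene pieces that encode most of the antigen-binding domain of the kappa antibody light chain. All features of the expression table whose symbol begins with Igkv were taken, which gave 160 of 49315 features. The family of a segment is the number that follows Igkv, and the 160 segments fall into 20 families. RNA was sequenced from primary total B cells of the spleens of mice aged 4 months, 4 samples in each of 2 groups. By their labels, both groups lacked the inhibitory Fc receptor FcγRIIB (FcγRIIB-/-). The 4 control samples carried the CD23Cre+ transgene. The 4 UMPS_BKO samples came from FcγRIIB-/- UMPSBKO mice, labelled as lacking Umps in B cells, which encodes the enzyme that completes de novo synthesis of uridine monophosphate. Cre under the CD23 promoter acts in B cells that have left the early bone marrow stages, so it acts after a light chain has been assembled. The labels number the replicates without tying each to its own animal, and the p-values therefore cover the spread between samples, which may be technical.

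A B cell makes its light chain by joining 1 Igkv segment to 1 Igkj segment, which is then spliced to the constant region Igkc. As a rule each B cell uses a single light chain, so the mix of Igkv transcripts in bulk RNA reflects both how many cells chose each segment and how much light chain RNA each cell holds. Plasma cells hold far more of this RNA than resting B cells. In bulk samples, fewer cells using a segment and less RNA per cell cannot be told apart. The lambda light chains (Iglv, Iglc) are the alternative to kappa, and in mice are the minority.

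Levels are TPM, transcript abundance scaled to 1000000 per library, a unit that is scaled by gene length and so allows segments to be compared with each other. Whole reads could be recovered from the TPM steps, and the recovered depth was 5.81 to 28.6 per library in units of 1000000 reads. Umps was 8.98 to 35.1 TPM in controls and 5.99, 1.05, 13.6 and 2.16 TPM in UMPS_BKO replicates 1 to 4, so UMPS_BKO replicate 3 lay inside the control range. Fcgr2b, the gene of the receptor that both groups are labelled as lacking, was above 0 in every library, at 8.42 to 16.8 TPM in controls and 2.18 to 9.54 TPM in UMPS_BKO. The labels do not say which part of either gene is deleted, so these levels over whole genes do not check the deletions. All 16 pan-B cell markers were above 0 in every library. Their summed level was 3686 to 9856 TPM in controls and 5875, 2264, 2487 and 630 TPM in UMPS_BKO replicates 1 to 4. Replicates 2, 3 and 4 of UMPS_BKO thus lay below every control in this sum. Transcripts of other cells differed greatly between libraries. The 16 measured erythroid markers summed to 151 to 547 TPM in controls and 4230 to 47176 TPM in UMPS_BKO, with 9 to 15 and 13 to 16 of them above 0. The 12 skeletal muscle markers summed to 0.271 to 3343 TPM in controls and reached 145583 TPM in UMPS_BKO replicate 4, against 310 to 1581 TPM in the other UMPS_BKO libraries. The 14 hepatocyte markers summed to 46193 and 14430 TPM in control replicates 2 and 3 and to between 0 and 20.6 TPM elsewhere. Ribosomal RNA-like and mitochondrial features took 13.6% to 69.4% of TPM in controls and 53.1% to 79.7% in UMPS_BKO. These values differ between the libraries compared in every Igkv result below, and the part of the erythroid transcripts was not tested. With control replicate 2 and UMPS_BKO replicate 4, the libraries highest in hepatocyte and muscle markers, both left out, the log2 difference of summed Igkv TPM given below as −4.18 was −2.97 and no segment passed (limma, smallest adjusted p = 0.0967). Without the ribosomal RNA-like and mitochondrial features that difference was −3.40, and 3 in place of 5 segments passed the test. With the pan-B marker level as a covariate no segment passed (limma, smallest adjusted p = 0.579).

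Of the 160 segments, 100 are annotated as functional and 60 as pseudogenes. All lie on chromosome 6 of the GRCm38 build, 18.4 to 3166.3 kb from Igkj1, with 75 on the plus strand and 85 on the minus strand. The 5 segments that later passed the test are shown first, because they are the segments called between the groups. The last 300 bases of the variable exon (all 298 for Igkv9-123) are given 5′ to 3′, from the GENCODE M21 transcripts of GRCm38, and capitals mark the stretch from the conserved cysteine codon to the end of the exon. After the cysteine codon itself, that stretch is the germline contribution to the third complementarity-determining region, the loop at the join to the Igkj segment. They are at chr6:69184826-69185125 (minus strand) for Igkv4-74, chr6:70698768-70699067 (plus) for Igkv3-2, chr6:69399812-69400111 (minus) for Igkv4-62, chr6:67954228-67954525 (minus) for Igkv9-123 and chr6:68220407-68220706 (plus) for Igkv2-112.
Igkv4-74: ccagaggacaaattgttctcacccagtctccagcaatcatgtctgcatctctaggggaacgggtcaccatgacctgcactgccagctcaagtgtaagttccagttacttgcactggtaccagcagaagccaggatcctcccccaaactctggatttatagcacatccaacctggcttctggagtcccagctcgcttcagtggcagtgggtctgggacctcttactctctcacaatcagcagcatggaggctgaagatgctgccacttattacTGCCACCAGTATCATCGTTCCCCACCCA
Igkv3-2: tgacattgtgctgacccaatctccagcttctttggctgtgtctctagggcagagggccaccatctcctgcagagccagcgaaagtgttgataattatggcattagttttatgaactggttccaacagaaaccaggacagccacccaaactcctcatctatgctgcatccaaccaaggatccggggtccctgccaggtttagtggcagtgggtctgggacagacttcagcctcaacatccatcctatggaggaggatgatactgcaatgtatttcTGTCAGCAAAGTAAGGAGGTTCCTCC
Igkv4-62: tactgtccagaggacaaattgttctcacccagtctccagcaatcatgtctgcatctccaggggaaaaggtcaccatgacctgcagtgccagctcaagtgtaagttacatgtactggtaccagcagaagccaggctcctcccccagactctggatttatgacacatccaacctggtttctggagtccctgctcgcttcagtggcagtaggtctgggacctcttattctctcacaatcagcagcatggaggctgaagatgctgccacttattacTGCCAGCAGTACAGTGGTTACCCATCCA
Igkv9-123: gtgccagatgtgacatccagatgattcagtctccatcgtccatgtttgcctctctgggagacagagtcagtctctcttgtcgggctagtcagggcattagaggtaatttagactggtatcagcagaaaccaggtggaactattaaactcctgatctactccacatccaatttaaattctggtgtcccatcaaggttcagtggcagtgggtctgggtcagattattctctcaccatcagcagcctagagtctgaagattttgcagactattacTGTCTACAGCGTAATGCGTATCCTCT
Igkv2-112: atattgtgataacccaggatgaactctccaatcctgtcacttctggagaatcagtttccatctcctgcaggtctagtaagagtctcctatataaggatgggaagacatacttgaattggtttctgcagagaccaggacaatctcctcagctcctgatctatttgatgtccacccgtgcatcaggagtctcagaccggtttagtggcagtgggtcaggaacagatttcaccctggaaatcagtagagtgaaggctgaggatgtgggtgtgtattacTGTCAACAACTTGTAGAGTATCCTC

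Segments of a family are close copies of each other, which bears on how reads were assigned. The median identity of a segment to its nearest copy, over whole transcripts, was 93.6%, with a range from 60.5% to 98.8%. The nearest copy lay in the same family for 154 of the 160. For 63 segments it was at least 95% identical, and for 8 at least 98%. How reads that fit several copies were assigned is not stated in the labels or files used, and a value of a single segment is less certain than that of its family. The pair Igkv6-20 (chr6:70335841-70336138, minus strand) and Igkv6-29 (chr6:70138462-70138759, minus strand) is shown because each was among the 3 most abundant segments of a UMPS_BKO library and they are 98.7% identical over their transcripts. Capitals mark the 5 bases of the variable exon that differ, A177C, C188T, G243C, A282G and C295T, with the base of Igkv6-20 first and positions counted from 1 at the 5′ end of the exon.
Igkv6-20: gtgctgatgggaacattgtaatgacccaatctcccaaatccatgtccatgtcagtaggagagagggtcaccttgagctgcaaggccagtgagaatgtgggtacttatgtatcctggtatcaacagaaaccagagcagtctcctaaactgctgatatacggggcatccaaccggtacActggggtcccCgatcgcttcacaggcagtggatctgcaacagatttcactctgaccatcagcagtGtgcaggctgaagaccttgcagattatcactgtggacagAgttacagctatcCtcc
Igkv6-29: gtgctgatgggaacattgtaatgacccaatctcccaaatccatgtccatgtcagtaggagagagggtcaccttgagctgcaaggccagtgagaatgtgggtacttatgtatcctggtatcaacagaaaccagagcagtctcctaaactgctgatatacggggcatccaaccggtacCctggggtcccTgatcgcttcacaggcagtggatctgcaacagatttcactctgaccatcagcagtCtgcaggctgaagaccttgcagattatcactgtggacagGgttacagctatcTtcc

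The summed level of all Igkv segments ranged widely within each group. It was 1406, 22781, 21053 and 6316 TPM in control replicates 1 to 4. In UMPS_BKO replicates 1 to 4 it was 3669, 187, 561 and 103 TPM. UMPS_BKO replicates 2, 3 and 4 lay below every control, while UMPS_BKO replicate 1 lay above control replicate 1, so the groups overlap. On the log2 scale the mean was 12.98 ± 1.88 (SD, n = 4) in controls and 8.80 ± 2.27 (SD, n = 4) in UMPS_BKO, a difference of −4.18. No test is given for this sum over chosen genes. With UMPS_BKO replicates 2, 3 and 4 all left out, the difference was −1.14.

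The sum moved with the constant region. Igkc was 4715, 43498, 26420 and 12722 TPM in the controls and 8746, 588, 1241 and 139 TPM in UMPS_BKO replicates 1 to 4. Per 100 TPM of Igkc, Igkv segments gave 29.8, 52.4, 79.7 and 49.6 TPM in the controls. They gave 41.9, 31.9, 45.2 and 73.8 TPM in UMPS_BKO. These ratios covered almost the same range in both groups, and the difference of the mean log2 ratios was −0.12. Igkc itself did not pass the test over all genes (log2 difference −4.06 ± 1.11 SE; limma, Benjamini-Hochberg adjusted p = 0.277).

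**Figure D1:**
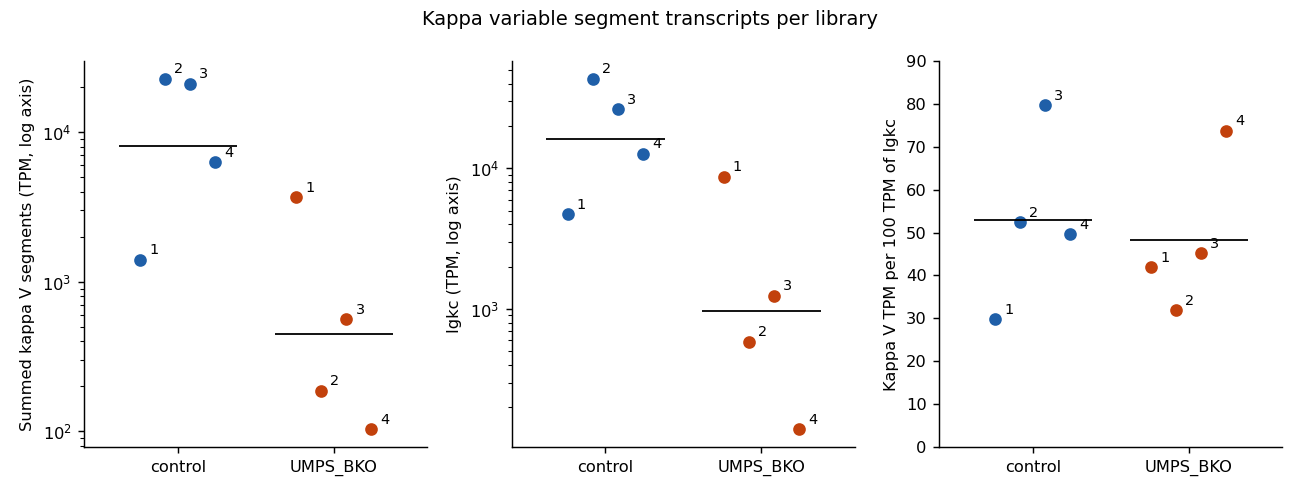
Summed Igkv TPM (left, log axis), Igkc TPM (middle, log axis) and Igkv TPM per 100 TPM of Igkc (right, linear axis) in each library. Points are libraries with their replicate number, and lines are geometric means on the log axes and the arithmetic mean on the right. UMPS_BKO replicates 2, 3 and 4 are the lowest in both levels, while the ratio spans 29.8 to 79.7 in controls and 31.9 to 73.8 in UMPS_BKO.

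Kappa made up less of the light chain pool in the same libraries. Igkv segments held 68.0%, 91.5%, 90.3% and 81.3% of the TPM of all Igkv and Iglv segments in controls. They held 80.9%, 42.1%, 56.5% and 52.4% in UMPS_BKO replicates 1 to 4. UMPS_BKO replicates 2, 3 and 4 were below every control, and replicate 1 was inside the control range. In replicates 3 and 4 most of the Iglv TPM was the single segment Iglv3, at 341 of 432 and 79.0 of 93.6 TPM. In replicates 1 and 2 it was 176 of 866 and 73.1 of 257 TPM. The kappa share without Iglv3 was not computed. Against the heavy chain the ranges overlapped, with 3.21, 3.45, 2.33 and 3.78 TPM of Igkv for each TPM of Ighv in controls and 2.58, 2.64, 2.96 and 4.72 in UMPS_BKO.

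Richness, the number of Igkv segments above 0 TPM, was 43, 100, 94 and 83 in the controls. In UMPS_BKO replicates 1 to 4 it was 79, 8, 25 and 10. The 3 UMPS_BKO libraries with the fewest segments lay below every control, and UMPS_BKO replicate 1 lay above control replicate 1. The means were 80.0 ± 25.7 in controls and 30.5 ± 33.2 in UMPS_BKO (SD, n = 4 each). Heavy chain variable segments followed the same order of libraries at the low end, with 22, 94, 78 and 61 above 0 in controls and 67, 3, 9 and 3 in UMPS_BKO.

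Richness depends on how many Igkv reads a library holds. The recovered Igkv reads numbered 6636, 48828, 19109 and 25327 in controls and 25362, 682, 2725 and 582 in UMPS_BKO. At an equal draw of 500 Igkv reads, the expected number of segments was 40.3, 70.0, 72.6 and 65.3 in controls. It was 67.4, 7.96, 22.7 and 9.98 in UMPS_BKO. The draw takes most of the 682 and 582 Igkv reads of UMPS_BKO replicates 2 and 4, so their numbers could hardly move. In UMPS_BKO replicate 3, with 2725 reads, the number went from 25 to 22.7. Of the detected segments, 2, 3 and 1 in UMPS_BKO replicates 2, 3 and 4 rested on 10 reads or fewer, and the median detected segment had 107.5, 90 and 47.5 reads. The limit that a count of 0 allows, 3 reads, was 0.440%, 0.110% and 0.515% of Igkv reads in these libraries. A segment at 0 there may therefore still have held a share up to that limit. Reads carried no molecular identifiers that are known of, so this limit covers counting error only.

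**Figure D2:**
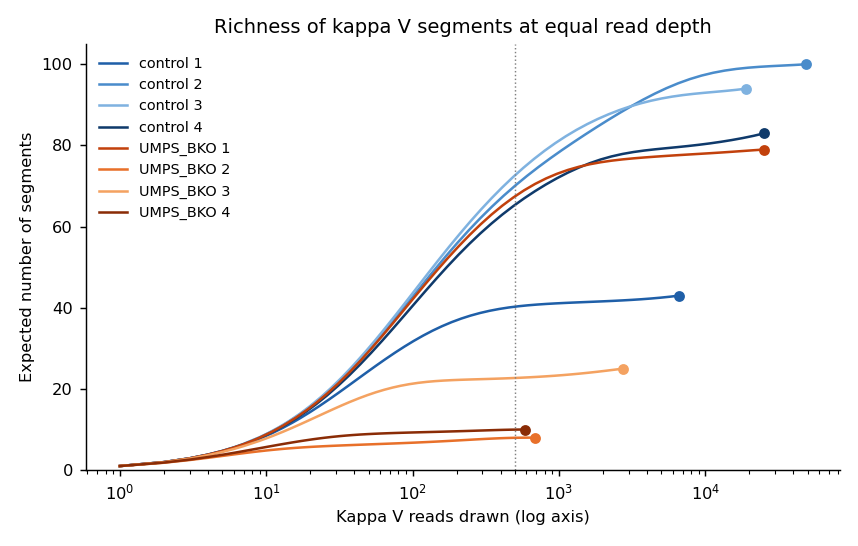
Expected number of Igkv segments (linear axis) against the number of Igkv reads drawn (log axis), 1 line per library ending in a point at its full depth. The dotted line marks 500 reads, where UMPS_BKO replicates 2, 3 and 4 reach 7.96, 22.7 and 9.98 segments and the other libraries 40.3 to 72.6.

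Across the study 107 of the 160 segments were above 0 in at least 1 library, of which 97 are functional and 10 are pseudogenes. The other 53, in no library above 0, comprise 3 functional segments and 50 pseudogenes. All 4 controls shared 40 segments, and no segment was above 0 in all 4 UMPS_BKO libraries. There were 22 segments seen in controls and in no UMPS_BKO library. The reverse held for 2 pseudogenes, Igkv13-61-1 at 9.68 TPM in UMPS_BKO replicate 1 and Igkv4-56 at 3.08 TPM in UMPS_BKO replicate 4, named here after their values were seen. Over all features, 11034 to 15889 were above 0 in a control library and 8626 to 13051 in a UMPS_BKO library. How many of all features were seen in controls alone was not counted, so the 22 have no background. UMPS_BKO replicates 2, 3 and 4 together held 36 segments, and 35 of these were also above 0 in a control.

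Dominance, the share taken by the leading segments, separated the same libraries. The leading segment held 8.66%, 6.92%, 7.87% and 11.3% of Igkv TPM in the controls, and it was Igkv9-120, Igkv3-2, Igkv19-93 and Igkv5-39 in turn. In UMPS_BKO replicates 1 to 4 it held 9.87%, 23.5%, 12.5% and 23.3%, and it was Igkv3-4, Igkv4-73, Igkv19-93 and Igkv6-29. UMPS_BKO replicates 2 and 4 had the highest shares, and replicate 1 lay within the control range. As a share of reads, the leader of UMPS_BKO replicate 2 had 155 of 682 (22.7%, 95% Wilson interval 19.7% to 26.0%), and that of replicate 4 had 142 of 582 (24.4%, 21.1% to 28.0%). The leader with the highest share among controls, Igkv5-39 in replicate 4, had 2679 of 25327 reads (10.6%, 10.2% to 11.0%). These intervals treat reads as independent draws. They cover counting error within a library only, not the spread between samples.

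The effective number of segments, the inverse Simpson index of the shares, was 24.9, 33.7, 35.6 and 27.7 in the controls. It was 30.2, 5.38, 16.9 and 6.78 in UMPS_BKO. The means were 30.5 ± 5.0 and 14.8 ± 11.5 (SD, n = 4 each), and UMPS_BKO replicate 1 again lay among the controls. Put as counts, 10 to 13 segments made up 50% of Igkv TPM in each control and in UMPS_BKO replicate 1. The same share was reached with 3, 7 and 3 segments in UMPS_BKO replicates 2, 3 and 4.

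**Figure D3:**
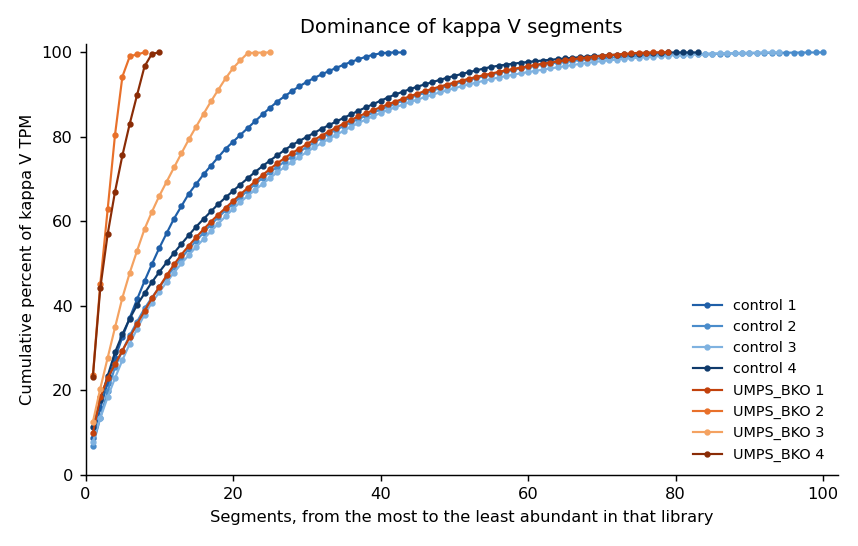
Cumulative percent of Igkv TPM (y axis) over the segments of each library, ordered from the most to the least abundant (x axis). The curves of UMPS_BKO replicates 2 and 4 rise most steeply, with 62.8% and 56.9% in the first 3 segments, against 18.4% to 23.4% in controls and 22.9% in UMPS_BKO replicate 1.

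By family, the controls were led by Igkv6 and Igkv3. Igkv6, with 9 functional segments, held 17.9% ± 4.2 of Igkv TPM in controls (SD, n = 4), and Igkv3 held 15.2% ± 2.9. Igkv4, the family with the most members at 33, followed with 11.6% ± 3.2. Next came Igkv1 with 8.46% ± 2.52 and Igkv5 with 7.44% ± 4.90. The families above 0 numbered 15, 20, 18 and 16 in controls and 18, 5, 11 and 6 in UMPS_BKO. Control replicate 2 was the only library with Igkv18-36 and Igkv20-101-2, the single members of their families, at 7.98 and 5.57 TPM, named after their values were seen.

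The leading family was Igkv3 or Igkv6 in every control, with 15.0% to 22.1%. In UMPS_BKO it was Igkv6 in replicate 1 (16.7%), replicate 2 (39.3%) and replicate 4 (33.7%), and Igkv4 in replicate 3 (22.6%). UMPS_BKO replicates 2, 3 and 4 thus exceeded the highest control share. Igkv3 held less in the same libraries, with 0%, 5.79% and 6.85% against 15.8% in UMPS_BKO replicate 1. Igkv4 went the other way in 2 of them, with 37.8% and 22.6% in UMPS_BKO replicates 2 and 3, but 10.5% in replicate 4 and 7.01% in replicate 1. Igkv10 and Igkv12 stood at 4.65% ± 1.12 and 5.77% ± 1.42 in controls, and both were listed at 0 in UMPS_BKO replicates 2, 3 and 4.

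In TPM, 2 families were lower in every UMPS_BKO library than in every control. Igkv9 was 145, 869, 859 and 111 TPM in controls and 85.1, 0, 0.213 and 21.5 TPM in UMPS_BKO. Igkv16, a family of the single segment Igkv16-104, named after its values were seen, was 61.9, 351, 202 and 86.4 TPM in controls and 60.9, 0, 0 and 0 TPM in UMPS_BKO. The gap was narrow in both, since UMPS_BKO replicate 1 came close to the lowest control. For the other 18 families the groups overlapped.

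**Figure D4:**
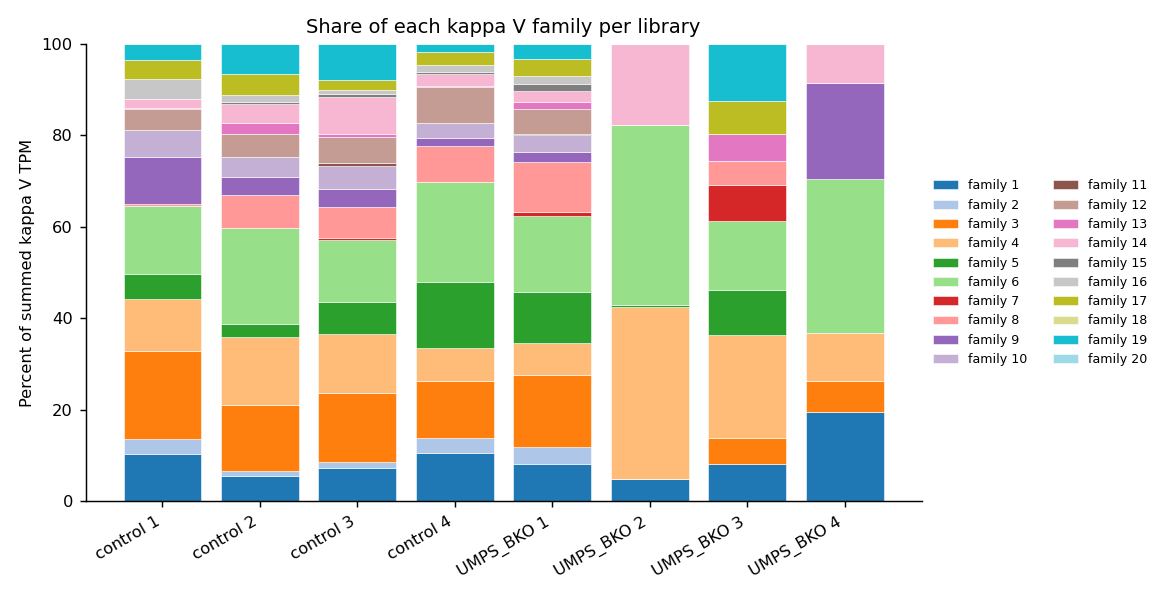
Percent of summed Igkv TPM (y axis, 0 to 100) held by each of the 20 families in each library, as stacked bars with no error bars. The controls and UMPS_BKO replicate 1 show 15 to 20 families, and UMPS_BKO replicates 2, 3 and 4 show 5, 11 and 6.

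Segments were tested one by one with limma on log2(TPM + 1), over all genes with at least 1 TPM in at least 4 of the 8 libraries. Of the 160 segments, 69 passed this filter, all functional, and 38 of them had at least 1 TPM in all 4 controls. Among the 69, 4 were under 1 TPM in every UMPS_BKO library and passed through the controls alone, so they had to differ. These 4 are among the 5 calls given below, the 50 lower at an unadjusted p, and the 10 that lay below all controls. Those counts are therefore a description and support nothing. With Benjamini-Hochberg adjustment over the 10708 genes tested, 5 Igkv segments were lower in UMPS_BKO, while 0.0934% of all tested genes (10 of 10708) were called lower. None was called higher, against 0.0374% of all tested genes, and at an unadjusted p under 0.05 the limma counts were 50 lower and 0 higher, while 17.4% of all tested genes had such a p in either direction. All UMPS_BKO libraries lay below all controls for 10 of the 69, against 4.81% of all tested genes, and above all controls for 0 of the 69, against 0.504%. The median log2 difference was −3.97 over the 69 segments and −0.90 over all tested genes, and with median-of-ratios scaling these became −3.40 and −0.15. The 5 calls depended on single libraries. Without control replicate 1, 13 of 87 tested segments passed as lower, while 51 of all 11651 tested genes did. Without UMPS_BKO replicate 1, 29 of 79 tested segments passed as lower, while 149 of all 11546 tested genes did. With a library left out, the filter asked for at least 1 TPM in at least 3 libraries. Segments at 0 in every remaining UMPS_BKO library, such as Igkv10-96 without UMPS_BKO replicate 1, then entered through the controls alone and had to differ. The counts of 13 and 29 are therefore also a description and support nothing. Without control replicate 2, 2 segments passed. None passed without control replicate 3 or 4 or without UMPS_BKO replicate 2, 3 or 4. The smallest limma adjusted p for any Igkv segment there was 0.0509 to 0.105.

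Igkv3-2, the member of the Igkv3 family with the highest mean level, lies 23.5 kb from Igkj1. It was 81.9, 1576, 892 and 355 TPM in the controls and 16.9, 0, 0 and 0 TPM in UMPS_BKO. The highest UMPS_BKO library was below the lowest control, and the other 3 had no read of it. Its log2 difference was −7.78 ± 1.08 (SE; limma adjusted p = 0.0186).

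Igkv4-74, the leading member of Igkv4, lies 1537.2 kb from Igkj1. It was 21.6, 242, 952 and 73.8 TPM in the controls, from 108, 556, 924 and 315 reads, and 0 in all 4 UMPS_BKO libraries. Against the 3-read floor of each UMPS_BKO library its mean was at least 577-fold lower, and the fitted log2 difference was −7.14 ± 0.97 (SE; limma adjusted p = 0.0186). It passed the filter through the controls alone, so a difference was fixed by the filter. Of the 22 segments seen in controls alone, it had the highest control mean.

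The other 3 calls were also at 0 in every UMPS_BKO library, so they too passed the filter through the controls alone, and their control means were lower. Igkv4-62, also of Igkv4, was 8.68, 19.9, 18.3 and 11.5 TPM in controls, at least 23.5-fold higher than the floor (log2 difference −3.89 ± 0.59 SE; limma adjusted p = 0.0215). Its control reads numbered 39, 41, 16 and 44. Igkv9-123 was 22.8, 18.2, 146 and 11.3 TPM in controls, at least 85.1-fold above the floor (−4.91 ± 0.80 SE; adjusted p = 0.0330). Igkv2-112 was 17.2, 8.08, 66.3 and 14.3 TPM in controls, at least 43.5-fold above the floor (−4.35 ± 0.71 SE; adjusted p = 0.0343). For both, control replicate 3 stood well above the other 3 controls. Just outside the threshold were Igkv4-55 (adjusted p = 0.0699), Igkv1-135 (0.106) and Igkv6-23 (0.110), each above 0 in all controls and in UMPS_BKO replicate 1 alone among the UMPS_BKO libraries, and named here after their values were seen.

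Apart from Igkv3-2, the segments that led a control did not pass the test, and UMPS_BKO replicate 1 was within or near their control range. Igkv19-93, the single member of its family, was 49.3, 1487, 1657 and 115 TPM in controls and 119, 0, 70.1 and 0 TPM in UMPS_BKO, where it led replicate 3 (log2 difference −5.17 ± 1.65 SE; adjusted p = 0.283). Igkv5-39 was 48.6, 208, 1047 and 713 TPM in controls and 311, 0.879, 15.2 and 0 TPM in UMPS_BKO (−4.91 ± 1.54 SE; adjusted p = 0.283). Igkv9-120 was 122, 492, 505 and 94.4 TPM in controls and 68.7, 0, 0 and 21.5 TPM in UMPS_BKO (−5.21 ± 1.27 SE; adjusted p = 0.203). The last was lower in every UMPS_BKO library than in every control, although it was the second most abundant segment of UMPS_BKO replicate 4.

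Igkv3-4 led UMPS_BKO replicate 1. It was 99.8, 265, 466 and 134 TPM in controls and 362, 0, 9.62 and 0 TPM in UMPS_BKO. In UMPS_BKO replicate 1 it exceeded 3 of the 4 controls, and in replicates 2 and 4 it was not detected. Igkv6-17, the leading Igkv6 member, showed the same overlap, with 56.2, 1435, 714 and 365 TPM in controls and 167, 0, 13.4 and 0.336 TPM in UMPS_BKO. Igkv10-96, Igkv14-111, Igkv6-15, Igkv2-137, Igkv8-30 and Igkv12-46 were all detected in UMPS_BKO replicate 1 and in no other UMPS_BKO library. Their log2 differences ran from −6.66 (Igkv6-15) to −4.02 (Igkv8-30), with limma adjusted p from 0.144 to 0.287. Igkv1-117, the leading Igkv1 member, had 99.9, 0, 28.5 and 6.89 TPM in UMPS_BKO, above 0 in 3 of the 4 libraries (−4.12 ± 1.19 SE; adjusted p = 0.277).

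Several of the leading segments of UMPS_BKO replicates 2, 3 and 4 were minor in the controls. Igkv4-73, an annotated pseudogene, held 23.5% of Igkv TPM in UMPS_BKO replicate 2 at 44.0 TPM. It was 0, 0, 29.5 and 10.6 TPM in controls and 0 in the other UMPS_BKO libraries. Igkv14-130, also a leader of that library at 33.1 TPM, was 0, 35.5, 78.2 and 0 TPM in controls. Igkv6-25, its second most abundant segment at 40.4 TPM, was above 0 in all 4 controls (11.0, 445, 311 and 112 TPM). Igkv7-33, the only Igkv7 segment, held 7.91% of UMPS_BKO replicate 3 and between 0 and 0.269% of each control. It was 0, 16.9, 56.7 and 0 TPM in controls and 26.9, 0, 44.4 and 0 TPM in UMPS_BKO, with a log2 difference of 0.07 ± 1.57 (SE; limma adjusted p = 0.980) whose sign turned when some single libraries were left out. Igkv1-108, another annotated pseudogene, held 12.8% of UMPS_BKO replicate 4, with 62 reads, against 1 read in control replicate 2 and none elsewhere. Pseudogenes as a whole took 0.146% to 0.646% of Igkv TPM in controls and 0.888%, 23.5%, 0% and 15.8% in UMPS_BKO replicates 1 to 4.

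The near-identical pair shown above divided between libraries. Igkv6-20 was 0, 123, 127 and 23.9 TPM in controls and 26.6, 33.1, 40.8 and 0 TPM in UMPS_BKO. Igkv6-29 was 0, 5.49, 0 and 9.11 TPM in controls and 0, 0, 0.201 and 23.9 TPM in UMPS_BKO. UMPS_BKO replicate 2 had 122 reads of Igkv6-20 and none of Igkv6-29, and UMPS_BKO replicate 4 had none of Igkv6-20 and 142 of Igkv6-29. The log2 difference of Igkv6-20 was −0.83 ± 1.53 (SE; limma adjusted p = 0.738), and it turned to 0.059 with median-of-ratios scaling. Igkv6-29 was not tested because it reached 1 TPM in too few libraries.

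UMPS_BKO replicates 2, 3 and 4 also shared few segments with each other. Replicates 2 and 4 had 8 and 10 segments above 0 and none in common. Replicates 2 and 3 shared 3 segments, 37.5% of the former and 12% of the latter. Replicates 3 and 4 shared 4, which is 16% and 40% of their segments. The overlap of segment shares, the sum over segments of the lower share of a pair of libraries, was 0% to 10.7% among these 3 libraries. It was 54.1% to 70.9% between controls and 54.0% to 65.7% between UMPS_BKO replicate 1 and the controls. With families in place of segments the overlap was 39.4% to 57.6% among the 3 libraries and 71.9% to 85.6% between controls.

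Position along the locus did not separate the groups. Segments within 1 Mb of Igkj1 held 44.4%, 49.7%, 46.6% and 60.02% of Igkv TPM in controls and 60.6%, 39.7%, 43.7% and 40.5% in UMPS_BKO. Those beyond 2 Mb held 26.0% to 40.5% in controls and 15.3% to 49.0% in UMPS_BKO. Plus-strand segments, which share the orientation of Igkj1 and join by deletion, held 42.7% to 56.9% in controls and 23.4% to 56.1% in UMPS_BKO. The ranges overlap in each measure, and UMPS_BKO replicate 3 had the lowest plus-strand share of all libraries.

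**Figure D5:**
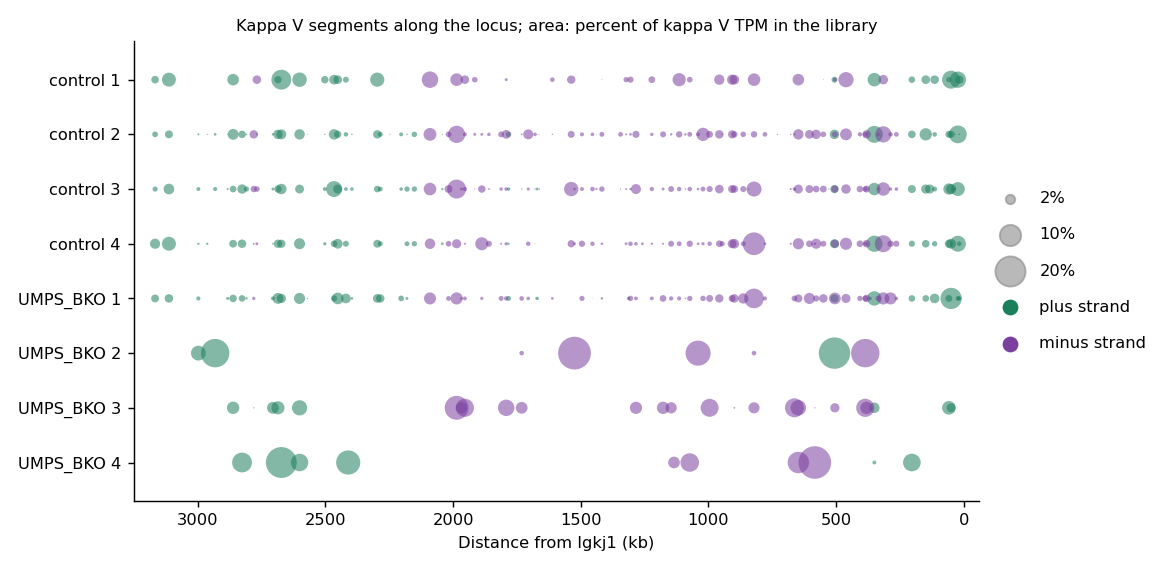
Igkv segments by their distance from Igkj1 in kb (x axis) in each library (rows). The area of a circle is the percent of that library's Igkv TPM, and the colour is the strand. Few large circles spread over the locus mark UMPS_BKO replicates 2 and 4, whose leading segments hold 23.5% and 23.3%.

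None of the partners of the Igkv segments passed the test. Of 15 listed light chain genes (Igkc, the Igkj, Iglj and Iglv segments and Iglc), 12 were tested. All 12 differences were negative with a median of −3.23, and 9 had an unadjusted p under 0.05 in limma. Over all tested genes, 84.3% of differences were negative, 17.4% had such a p, and the median was −0.90. Iglj1 had the smallest p, with 49.8, 303, 438 and 377 TPM in controls and 156, 0, 0 and 0 TPM in UMPS_BKO (log2 difference −5.99 ± 1.45 SE; adjusted p = 0.201). Iglv1, the most abundant lambda segment in the controls, followed (−3.43 ± 0.87 SE; adjusted p = 0.230). Iglc1 was −3.05 ± 0.90 (adjusted p = 0.283).

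The Igkj segments, which are very short and so have unsteady TPM, were patchy. Igkj2, the joining segment with the smallest p, was 145, 758, 0 and 116 TPM in controls and 91.4, 0, 0 and 0 TPM in UMPS_BKO (adjusted p = 0.283). Igkj1 was 0, 547, 609 and 24.3 TPM in controls and 20.95, 0, 103 and 0 TPM in UMPS_BKO (adjusted p = 0.379). Igkj4 was highest of all in UMPS_BKO replicate 3, at 589 TPM, against 0 to 199 TPM in controls (adjusted p = 0.572). UMPS_BKO replicates 2 and 4 had 0 TPM for all 5 Igkj segments, including the untested Igkj3 and Igkj5.

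The genes that assemble, regulate and mutate light chains were described from lists. Of 12 V(D)J recombination genes 7 were tested and none passed, 1 with an unadjusted p under 0.05, and the median difference was −0.97. These are near the 17.4% and the median of −0.90 of all tested genes. Rag2, which forms the recombinase with Rag1, was 0 TPM in every library, and Rag1 was at most 0.924 TPM. Xrcc4 (adjusted p = 0.283), Lig4 (0.288), Prkdc (0.367) and Polm (0.370), which act in the end joining step, had the smallest p. Of the surrogate light chain genes of pro- and pre-B cells, Vpreb1, Vpreb2 and Igll1 were 0 TPM in all 8 libraries. Vpreb3, which mature B cells also express, was 48.7 to 141 TPM in controls and 125, 0.118, 81.3 and 1.03 TPM in UMPS_BKO (adjusted p = 0.283).

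All 17 listed transcription factors of the kappa locus were tested and none passed, with 8 at an unadjusted p under 0.05, against the 17.4% of all tested genes. Their median difference was −1.69, with 15 negative and 2 positive, where 84.3% of all tested genes were negative. Ikzf3, Pou2af1, Spib and Tcf3 had the smallest p, each with an adjusted p of 0.283. Pou2af1, the coactivator that binds octamer factors at antibody promoters, was 95.6, 585, 708 and 372 TPM in controls and 278, 20.4, 64.6 and 9.67 TPM in UMPS_BKO. Pax5, the B cell identity factor, was 242 to 428 TPM in controls and 304, 788, 444 and 228 TPM in UMPS_BKO, so it did not share the order of libraries seen for Igkv.

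Of 10 somatic hypermutation genes 8 were tested, none passed, and 2 had an unadjusted p under 0.05, against 17.4% of all tested genes. Msh6, a mismatch repair subunit (limma adjusted p = 0.283), Rpa1, a single-strand DNA binding subunit (0.301), and Polh, a translesion polymerase (0.302), were among those with the smallest p. Plasma cell markers, with 14 of 16 tested, summed to 855 to 3710 TPM in controls and 1281, 246, 521 and 128 TPM in UMPS_BKO, and their part in the Igkv levels was not tested.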

How the data were processed

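Poly(A)-enriched RNA from 8 samples was sequenced. Tools named in the submitters' processing notes are STAR 2.5.2b, Subread 1.5.2 with featureCounts, and bcl2fastq 2.20, with build GRCm38. The values are TPM as deposited by the authors. The TPM formula, annotation release, strand setting and treatment of multiply matching reads are not stated there, and overlapping genes on opposite strands cannot be told apart.

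Multiplying TPM by GENCODE M21 exon length gave values that were whole multiples of a step per library. Between 90.6% and 92.8% of values under 30 reads were whole within 0.05 reads, as were all 442 Igkv values above 0 within 0.15. No count test was run. Differences are UMPS_BKO minus control on log2(TPM + 1), which understates changes of low genes, by limma 3.58.1 in R 4.3.3 (trend, two-sided, adjusted p under 0.05). Shares and richness used Python 3.11.15. Simulation on the 10708 genes for this comparison recovered 0%, 69.6%, 92.9% and 96.8% of changed genes at log2 folds of 2, 4, 6 and 8. The changed genes were drawn at random from all tested genes, each with its own spread. These rates are therefore not those of the Igkv segments alone, which were not simulated apart.

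The members, gene lists and markers were chosen with earlier results of these data known. Named segments were those that passed, the 3 most abundant of each library, the leading member of each family with at least 3 tested, Igkc and Igkj, and up to 4 genes of each list (1 gene that fits the rule is not reported here); others are said to be named for their values. Deviations of genes from their group means correlated at −0.347 to −0.0285 between same-numbered control and UMPS_BKO samples. Between differently numbered samples they correlated at −0.192 to 0.314, so numbers were not taken to pair samples. Alternatives covered pseudocount, filter, scaling, weights, block, a pan-B covariate and libraries left out.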

Additional observations from a re-analysis of the deposited data

Results flagged for a closer look

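Of 36 groups of 4 libraries examined for a library far from the others, 10 were flagged, and chance flags about 1 group in 20. The groups share libraries and are not independent. In UMPS_BKO, replicate 1 stood far above the other 3 libraries in summed Igkv level (3669 TPM), in Igkv3-2 (16.9 TPM) and in 6 families. These were Igkv1 (301 TPM), Igkv3 (579 TPM), Igkv5 (408 TPM), Igkv6 (613 TPM), Igkv8 (400.4 TPM) and Igkv12 (202 TPM). In controls, replicate 3 stood far above the other 3 in Igkv9-123 (146 TPM) and Igkv2-112 (66.3 TPM), both of which passed the test as lower in UMPS_BKO.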

How the results depend on the processing

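The 5 Igkv segments called lower became 2 with a pseudocount of 5, 2 with a mean TPM of at least 5, 2 with quantile normalization, 3 with the median of ratios, 3 without ribosomal RNA-like and mitochondrial features, and 57 with array weights. There were 0 with no filter, 0 with the pan-B covariate, and 0 with control replicate 2 and UMPS_BKO replicate 4 both left out (limma). Leaving out single libraries, with a filter of at least 3 libraries, gave 0 to 29, which includes segments that entered through the controls alone. With the replicate number as a block, which the labels do not show to pair samples, 12 segments were called, 3 of the 5 among them. In that fit 23 of all 10708 tested genes were called lower. The causes were not tested. No segment was called higher under any of these. The log2 difference of summed TPM, −4.18, was −0.12 per Igkc, −1.14 with UMPS_BKO replicates 2, 3 and 4 left out (chosen after the data were seen), and −5.19 to −3.47 with single libraries left out. Under the same 2 kinds of omission, richness (−49.5) was −1 and −65.7 to −42.0, the effective number (−15.6) was −0.29 and −20.8 to −12.5, the top segment share (8.61 percentage points) was 1.19 and 6.53 to 11.1, and the top family share (8.76 points) was −2.59, a reversal, and 5.03 to 12.5. Igkv6-20 (−0.83) turned to 0.059 with the median of ratios, 0.020 with quantile normalization, 0.074 without ribosomal RNA-like and mitochondrial features, 2.38 with the pan-B covariate, 1.21 with both libraries left out and 0.44 without UMPS_BKO replicate 4, the upper end of −2.38 to 0.44 over single libraries left out. Igkv7-33 turned to −0.90 to −0.67 without control replicate 1 or 4 or UMPS_BKO replicate 1 or 3. Depth limits UMPS_BKO replicates 2 and 4 most, with 682 and 582 Igkv reads.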
